A study of Mus musculus with 4 samples.

Results

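The regions described here are the probes of 3 mouse gene family clusters on a microarray of immunoprecipitated methylated DNA. They were taken by position on mouse genome build mm9: chr4:60000000-62000000 for the Mup cluster, chr5:14000000-16000000 and chr5:26000000-28000000 for the Speer cluster, and chr14:3000000-8000000 and chr14:41500000-44500000 for the takusan cluster. These 5 windows hold 634 of the 174638 genomic probes on the array, and joining probes at gaps of up to 1000 bp gave 85 regions. The results below rest on the 493 probes with input signal above background in all 4 arrays, and on the 75 regions with at least 3 such probes, of 17452 such regions in all. Of those 75, 22 lie in the Mup window, 25 in the Speer windows (12 and 13) and 28 in the takusan windows (16 and 12). The windows were chosen because their ratios were lower at day +2 than at day -2 in shRNA8 cells and, for Mup, lower in shRNA8 than in control cells at day +2, so those values are given as a description. The files name no genes, and the family names are those given to the windows.

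The study followed 3T3-L1 cells, a mouse embryo fibroblast line that can be turned into fat cells, in 2 forms. One was stably transfected with shRNA8 against slincRAD, a long noncoding RNA, and the other was the wild-type control, which is not described as carrying a control shRNA. Each form was sampled before induction (day -2) and after it (day +2), with induction at confluence in 0.5 mM isobutylmethylxanthine, 1 µM dexamethasone and 167 nM insulin. The groups were therefore shRNA8 at day +2, shRNA8 at day -2, control at day +2 and control at day -2, with 1 array each. Without replicates there is no spread between samples and no test, and the SDs below are spreads over regions or probes of the same arrays. Whether the shRNA8 cells are 1 clone is not given in the sources used here, and the level of slincRAD is not measured by these arrays. The input label of the shRNA8 day +2 sample names that day but describes cells before induction, and it was taken as day +2.

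Mup genes encode major urinary proteins, lipocalins that are made mainly in the mouse liver, pass into urine and carry volatile pheromones. Speer genes encode glutamate-rich proteins named for their link to spermatogenesis in the testis. The takusan genes are a mouse family first described in neurons, where members act on synapses. Such families hold copies alike enough in places for a short probe to bind DNA from several of them. Methylated DNA immunoprecipitation enriches fragments that carry methylated CpG sites, and its yield depends on how many such sites a fragment holds as well as on how often they are methylated.

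The 250 bases before the start of family genes are shown to make visible how alike some Mup and Speer copies are and how few CpG sites those copies offer. They come from RefSeq on build GRCm38.p6, whose coordinates differ from those of the mm9 array, and CpG sites are in capitals. Mup2 and Mup11, from the Mup family, were 98.2% identical where they overlap and have 2 CpG sites each. Speer4a and Speer4b, from the Speer family, were 96.0% identical and have 1 and 0. Of these 4, Mup11, Speer4a and Speer4b were chosen after their values were seen. They replace the lowest-numbered symbols of the planned rule, which pairs Mup2 with Mup3 (74.4% identical) and Speer1 with Speer2 (89.8%). Mup3, Speer1 and Speer2 have 1, 0 and 3 CpG sites. The gene matched to the takusan family by name, 2610042L04Rik, has 25, against a median of 6 over all RefSeq promoters. No other gene matched that family by name, so it shows no likeness between copies.
Mup2, chr4:60139857-60140106, minus strand: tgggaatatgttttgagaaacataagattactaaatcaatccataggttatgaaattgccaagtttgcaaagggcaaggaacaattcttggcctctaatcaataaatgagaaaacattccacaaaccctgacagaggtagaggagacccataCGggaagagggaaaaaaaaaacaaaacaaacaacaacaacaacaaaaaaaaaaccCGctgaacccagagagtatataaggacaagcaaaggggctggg
Mup11, chr4:60662396-60662645, minus strand: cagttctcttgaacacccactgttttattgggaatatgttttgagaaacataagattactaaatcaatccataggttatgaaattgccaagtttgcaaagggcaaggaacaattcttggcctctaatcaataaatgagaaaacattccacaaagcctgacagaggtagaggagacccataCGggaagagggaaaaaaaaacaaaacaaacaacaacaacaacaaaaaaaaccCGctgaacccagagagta
Speer4a, chr5:26039506-26039755, minus strand: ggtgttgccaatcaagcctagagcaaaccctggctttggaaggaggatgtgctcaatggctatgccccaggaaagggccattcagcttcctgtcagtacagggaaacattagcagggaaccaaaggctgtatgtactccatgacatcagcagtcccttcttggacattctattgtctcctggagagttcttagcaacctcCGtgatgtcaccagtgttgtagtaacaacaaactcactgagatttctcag
Speer4b, chr5:27501393-27501642, minus strand: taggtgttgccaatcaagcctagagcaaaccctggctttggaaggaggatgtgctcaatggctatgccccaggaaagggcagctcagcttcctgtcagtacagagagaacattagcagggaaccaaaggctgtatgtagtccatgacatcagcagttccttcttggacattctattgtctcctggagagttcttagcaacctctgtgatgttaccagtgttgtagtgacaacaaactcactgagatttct
2610042L04Rik, chr14:4334513-4334762, plus strand: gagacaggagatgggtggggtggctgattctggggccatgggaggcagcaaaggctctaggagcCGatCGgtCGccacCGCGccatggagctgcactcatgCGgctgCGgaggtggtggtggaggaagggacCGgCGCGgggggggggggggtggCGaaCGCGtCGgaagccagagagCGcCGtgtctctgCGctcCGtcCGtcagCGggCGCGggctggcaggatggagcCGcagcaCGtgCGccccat

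The median promoter of the 14 Mup genes with a RefSeq entry, of 22 Mup genes named there, held 2 CpG sites in 250 bases. The median of the 10 Speer promoters, on any chromosome, held 0, and the median of all 27018 RefSeq promoters held 6. Pairs of Mup promoters were 90.8% identical at the median, over 91 pairs with a range of 71.9% to 98.8%. Pairs of Speer promoters were less alike, at 66.5% over 45 pairs with a range of 53.4% to 98.4%. The promoters could not be placed on the array's regions, because the builds differ.

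Across all 95060 probes kept, the Pearson correlation between any 2 arrays was 0.998 to 0.999 for the log2 immunoprecipitate (IP) signal and 0.955 to 0.967 for the log2 input signal. The median input signal of these probes after background subtraction was 20.3 to 29.3 intensity units per array, against 146 to 169 units for the IP. The 2 shRNA8 arrays were the brighter ones in both channels and lay in positions 1 and 2 of the slide, with control in positions 3 and 4. The day -2 arrays lay in positions 1 and 3 and the day +2 arrays in positions 2 and 4. Neither line nor day can therefore be told apart from position.

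The repeated layout of the clusters shows on the array itself. Of the 80 regions of at least 5 probes in the windows, 16 (20%) contain a run of 5 consecutive probes with the same lengths and spacings as a run in another region, and all their partners lie in the same window. Elsewhere this held for 572 of 21501 regions (2.66%). The 16 regions were 6 in the Mup window, 7 in the first takusan window and 3 in the second, and none in the Speer windows. A set of 3 in the second takusan window lies at chr14:43376243-43377961, chr14:43693610-43695328 and chr14:44185179-44186897. These regions hold 9 probes each and are linked by such shared runs of 5. Their mean background-subtracted IP was 85, 85 and 94 units in shRNA8 at day +2, 88, 86 and 97 in shRNA8 at day -2, 72, 77 and 82 in control at day +2, and 76, 76 and 87 in control at day -2. The values stay close from one region of the set to the next in every array. Over the 53 pairs of probes with matched places in such sets, the median absolute difference in log2 IP was 0.050 in shRNA8 at day +2, 0.083 in shRNA8 at day -2, 0.048 in control at day +2 and 0.077 in control at day -2. The SD of log2 IP over all kept probes was at least 2.10. In log2 input the same pairs differed more, by 0.19, 0.25, 0.29 and 0.34 in the same array order, against an SD over all kept probes of at least 1.96. The day changes of the ratio differed by 0.25 within pairs in shRNA8, where the median absolute change was 0.51, and by 0.45 in control, where it was 0.30. Regions with a shared layout are not independent measurements, but each still enters the means and counts below as a region of its own.

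In every array the clusters had a lower ratio of IP to input than other regions. On the log2 scale, with 0 at the median probe of each array, the Mup regions averaged -1.53 in shRNA8 at day +2, -0.94 in shRNA8 at day -2, -0.93 in control at day +2 and -0.81 in control at day -2. The Speer regions were lower still, at -2.40, -1.73, -2.07 and -1.68 in the same order of arrays. The takusan regions averaged -1.34, -0.88, -1.11 and -0.83, and the regions outside the windows averaged -0.27 in all 4 arrays. Spread within a family was wide, with an SD over regions of 0.67 to 0.88 for Mup, 1.36 to 1.76 for Speer and 0.94 to 1.27 for takusan. In each family the array of shRNA8 cells at day +2 had the lowest mean.

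**Figure D1:**
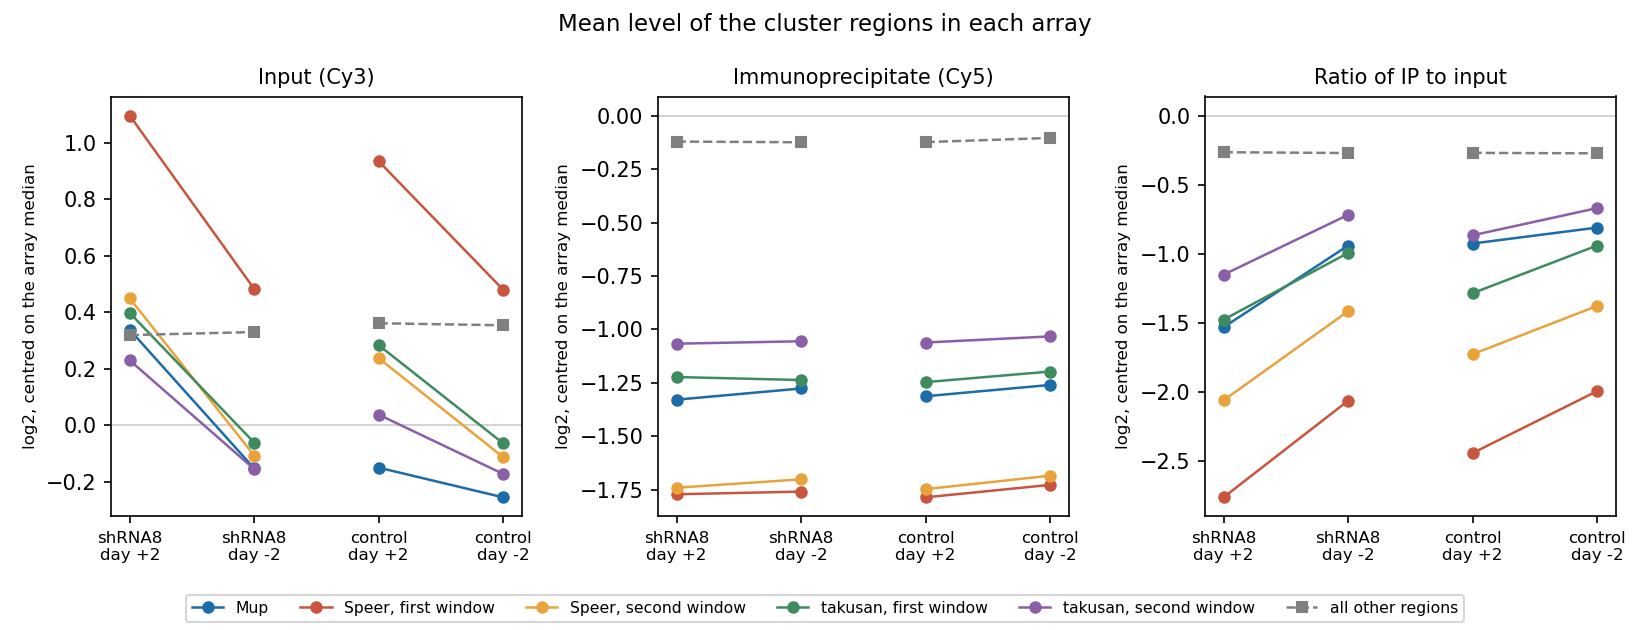
Mean log2 level of the regions in each window and array, centred on the array's median, for the input channel, the IP channel and the ratio of IP to input. Coloured points are the 5 windows and grey squares all other regions; lines join the days of 1 line. The IP points of each window are almost level across the arrays, while the input points are higher at day +2 than at day -2 in both lines.

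The channels taken apart show which one moved. The mean log2 input of the first Speer window, relative to the array's median, was 1.1 in shRNA8 at day +2, 0.48 in shRNA8 at day -2, 0.93 in control at day +2 and 0.48 in control at day -2. Its median input signal was 69.0, 45, 41.1 and 32.0 units after background subtraction in the same order, while elsewhere it was 28.4, 29.3, 20.3 and 22.0 units. The mean log2 IP of that window was -1.77, -1.76, -1.79 and -1.73, so the highest and lowest array lay 0.06 apart. For Mup the mean log2 input was 0.34 in shRNA8 at day +2, -0.15 in shRNA8 at day -2, -0.15 in control at day +2 and -0.26 in control at day -2. The shRNA8 day +2 array thus stood above the other 3 in the Mup input, and the Mup log2 IP was between -1.33 and -1.26 in all 4.

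The first comparison asks what changed in the ratio between the days in shRNA8 cells. The Mup regions averaged -0.59 ± 0.25 (SD over 22 regions), the Speer regions -0.67 ± 0.46 (25 regions) and the takusan regions -0.46 ± 0.36 (28 regions), on the log2 scale of day +2 minus day -2. All 17452 regions averaged 0.00 ± 0.27. Lower regions are those with a mean difference of -0.6 or beyond, a change of about 1.52-fold, and at least 75% of their probes on that side; higher regions are the mirror image. Of the Mup regions 12 of 22 were lower, of the Speer regions 16 of 25 and of the takusan regions 8 of 28, against 2.21% of all regions. None of the 75 was higher, against 0.98% of all regions. Since the windows were chosen on this contrast, these counts describe the choice.

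Mean log2 input in shRNA8 cells was higher at day +2 by 0.49 for Mup, 0.58 for Speer and 0.43 for takusan, and it was above 0 in 22 of 22, 22 of 25 and 26 of 28 regions, against 7970 of all 17452 regions. The change in log2 IP averaged -0.052, -0.026 and 0.0032 for the same families. All regions averaged -0.01 in input and 0.00 in IP, with SDs of 0.26 and 0.065. In these cells the lower ratio of the clusters thus went with higher input and an IP that moved by less than its SD over all regions. A difference in the amount of cluster DNA in the input and a difference in its methylation cannot be told apart from these ratios.

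Among the Mup regions the most negative day changes in shRNA8 cells were at chr4:61180092-61181719 and chr4:61747932-61749346. The region at chr4:61180092-61181719 had a log2 ratio of -2.36 in shRNA8 at day +2, -1.32 in shRNA8 at day -2, -1.46 in control at day +2 and -1.40 in control at day -2. Its day change was -1.04 ± 0.83 (SD over 6 probes, all 6 lower) in shRNA8 and -0.05 in control. The region at chr4:61747932-61749346 had -2.21, -1.26, -1.85 and -1.35 in the same arrays. Its day changes were -0.95 ± 0.84 in shRNA8 (SD over 4 probes, 3 of them lower) and -0.50 in control. This drop rests on weak input, at a mean of 10.96, 5.64, 6.21 and 4.78 units in the same array order. The median input of all kept probes was 20.3 to 29.3 units per array. The Mup region at the other end of the range, chr4:61868749-61870480, had log2 ratios of 0.32, 0.31, 0.04 and 0.13 in the same arrays. Its day changes were 0.01 in shRNA8 and -0.09 in control. That region is the only 1 of the 22 Mup regions with a shRNA8 day change above 0.

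Among the Speer regions the largest drops were at chr5:14978403-14980106 and chr5:26330772-26332431, 1 in each window. The region at chr5:14978403-14980106 had a log2 ratio of -4.73 in shRNA8 at day +2, -3.53 in shRNA8 at day -2, -4.16 in control at day +2 and -3.55 in control at day -2. Its mean input signal was 70.7 units in shRNA8 at day +2, 38.4 in shRNA8 at day -2, 37.9 in control at day +2 and 28.8 in control at day -2, and its IP was 26, 27, 22 and 23 units. In both lines all 9 of its probes were lower at day +2, by -1.20 ± 0.40 in shRNA8 and -0.61 ± 0.32 in control (SD over probes). The region at chr5:26330772-26332431 behaved alike, with day changes of -1.20 ± 0.41 in shRNA8 and -0.46 ± 0.46 in control over 8 probes. The next in each window were chr5:15185382-15186836, at -1.12 in shRNA8 and -0.56 in control, and chr5:26431333-26432994, at -1.06 and -0.47. The highest Speer values were at chr5:27230230-27231608, 0.29 in shRNA8 and 0.42 in control, and at chr5:14025165-14025604, 0.24 and -0.37.

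Among the takusan regions chr14:4126040-4127318 fell furthest, with a log2 ratio of -3.33 in shRNA8 at day +2, -2.11 in shRNA8 at day -2, -2.97 in control at day +2 and -2.21 in control at day -2. Its day changes were -1.22 ± 0.69 in shRNA8 and -0.76 ± 0.50 in control (SD over 6 probes). At chr14:3919325-3921017 they were -0.92 and -0.70. In the second takusan window the largest drops, at chr14:44185179-44186897 and chr14:43376243-43377961, were -0.90 each in shRNA8, against -0.37 and -0.43 in control. These are 2 of the 3 regions with a shared probe layout, and the third, chr14:43693610-43695328, had -0.65 in shRNA8 and -0.54 in control. The highest takusan values were at chr14:41705781-41707464, 0.45 ± 0.84 in shRNA8 and -0.15 in control, and at chr14:3048272-3049762, 0.14 and -0.01.

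Control cells give the same day comparison from the other line, of which the day +2 array entered the choice of the Mup window. The Speer regions averaged -0.40 ± 0.32 and the takusan regions -0.28 ± 0.31, while the Mup regions averaged -0.12 ± 0.25 (SD over regions) and all regions 0.00 ± 0.25. Of the Speer regions 5 of 25 were lower and of the takusan regions 3 of 28, against 1.11% of all regions, and none of the 22 Mup regions was. A single region was higher, in the second takusan window, against 0.986% of all regions. All 8 lower regions in control cells were also lower in shRNA8 cells, which is 8 of 8 of the control list and 8 of 36 of the shRNA8 list. Elsewhere 43 regions were lower in both lines, of 185 in control and 350 in shRNA8. The input channel in control cells was higher at day +2 by 0.40 for Speer and 0.29 for takusan on the log2 scale, and by 0.11 for Mup. The log2 IP changed by -0.061, -0.041 and -0.053 for those families.

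**Figure D2:**
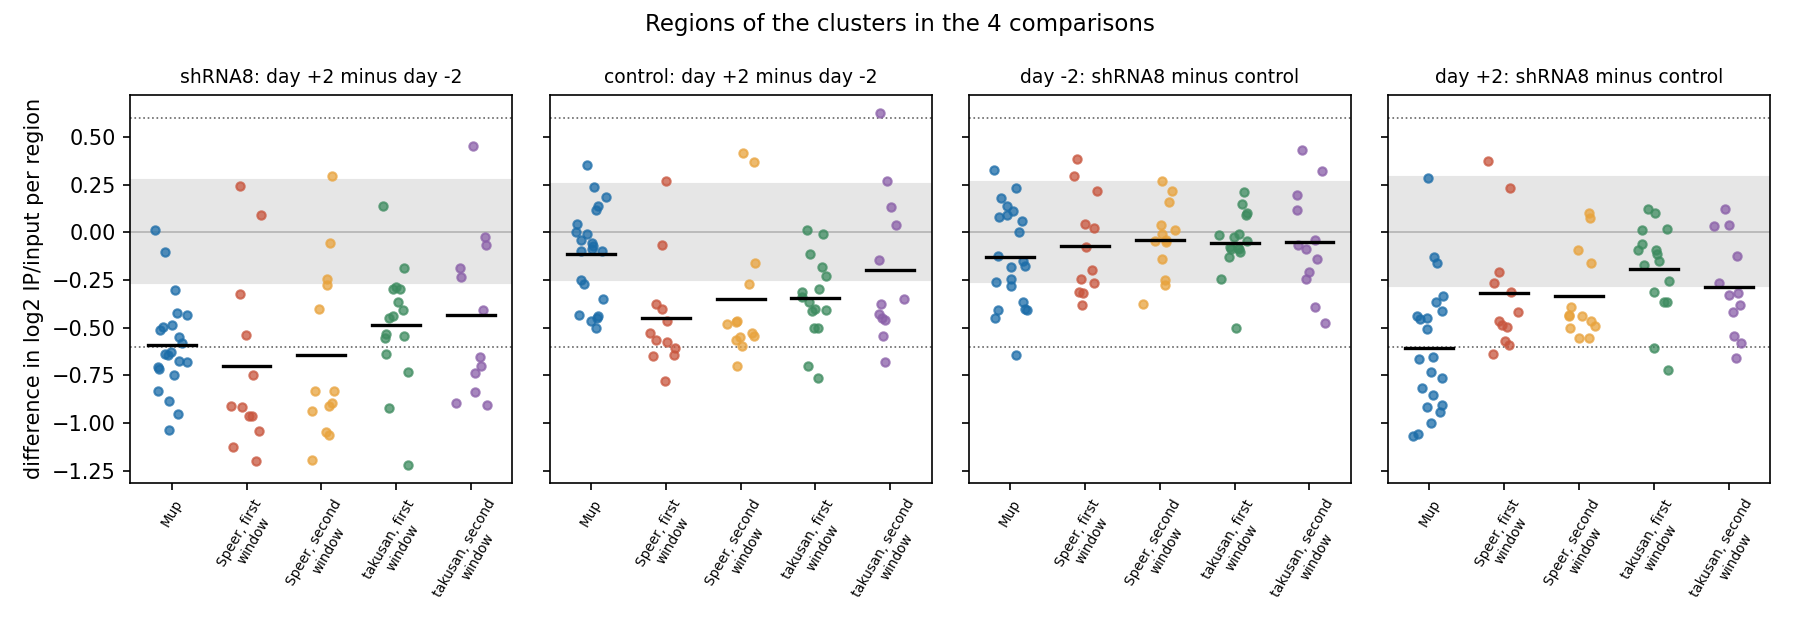
Difference in log2 IP to input for each of the 75 regions, by window, in the 4 comparisons. Bars are window means, the grey band is the mean ± SD of all 17452 regions, and dotted lines mark the threshold of 0.6. The Mup points lie around 0 in the control comparison and mostly below it in shRNA8 cells, while the Speer points are mostly below 0 in both lines.

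Set side by side, the day change was more negative in shRNA8 than in control cells in 21 of 22 Mup, 21 of 25 Speer and 22 of 28 takusan regions, against 8478 of all 17452 regions. The mean difference between the lines' day changes was -0.48 ± 0.29 for Mup, -0.27 ± 0.33 for Speer and -0.18 ± 0.29 for takusan (SD over regions). Over all 17452 regions it was 0.00 ± 0.35. The shRNA8 day change was part of the choice of windows, so this difference carries that choice, and with 1 array per group it was not tested.

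The comparisons of the lines within a day use the same 4 arrays again, so they are not separate evidence. At day -2, shRNA8 minus control averaged -0.13 ± 0.26 for Mup, -0.05 ± 0.22 for Speer and -0.05 ± 0.21 for takusan (SD over regions), and 1 region, in the Mup window, was lower, against 1.25% of all regions. At day +2 the averages were -0.61 ± 0.34 for Mup, -0.33 ± 0.27 for Speer and -0.23 ± 0.25 for takusan, with all regions at 0.00 ± 0.29. Lower at day +2 were 9 of 22 Mup, 1 of 25 Speer and 3 of 28 takusan regions, against 1.94% of all regions. None of the 75 was higher on either day, against 1.18% and 1.4% of all regions at day -2 and day +2. With median centring in place of quantile normalization the day +2 means were -0.53 for Mup, -0.20 for Speer and -0.16 for takusan.

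The Mup region with the most negative line difference at day +2, chr4:60015121-60016916, had a log2 ratio of -3.11 in shRNA8 at day +2 and -2.04 in control at day +2. At day -2 it had -2.28 in shRNA8 and -2.03 in control. The line difference was thus -1.07 ± 0.62 at day +2 and -0.24 ± 0.53 at day -2 (SD over 8 probes). Its mean input was 23.4 units in shRNA8 at day +2, 12.8 in shRNA8 at day -2, 8.2 in control at day +2 and 8.2 in control at day -2, with IP at 19, 19, 17 and 18 units. The Speer regions named by the same rule had smaller differences at day +2, of -0.64 at chr5:15219590-15221207 and -0.56 at chr5:27827434-27829062. The takusan regions were at -0.72 for chr14:3919325-3921017 and -0.66 for chr14:44185179-44186897.

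Most of the lower regions of the Speer windows, and all 6 of the second takusan window, follow one another in a row. In the second Speer window 7 regions in a row over 254 kb, chr5:26330772-26584706, were lower between the days in shRNA8 cells. They averaged -0.98 in shRNA8 and -0.54 in control. Their log2 ratios averaged -3.34 in shRNA8 at day +2, -2.36 in shRNA8 at day -2, -2.87 in control at day +2 and -2.33 in control at day -2. The next 5 regions had shRNA8 day changes of -0.40 to 0.29. The eighth lower region, chr5:27827434-27829062, lies beyond them, with -0.83 in shRNA8 and -0.53 in control and log2 ratios of -3.95, -3.12, -3.40 and -2.87 in the same array order. In the second takusan window 6 regions in a row, spread over 1513 kb at chr14:42673638-44186897, averaged -0.79 in shRNA8 and -0.47 in control. The other 6 regions averaged -0.08 and 0.08. Their log2 ratios were -2.70, -1.91, -2.22 and -1.75 in the same array order, against 0.39, 0.47, 0.49 and 0.41 for the others. The 6 regions in a row thus had low ratios in all 4 arrays, and the other 6 averaged above the array's median. The longest row in the first Speer window was 6 regions, chr5:14978403-15221207, at -0.98 in shRNA8 and -0.55 in control.

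In the Mup window the longest row of lower regions was 4, chr4:60234980-60595869, at -0.74 in shRNA8 and -0.29 in control, and the other 18 regions averaged -0.56 and -0.08. The first takusan window had a row of 2, chr14:3919325-4127318, at -1.07 in shRNA8 and -0.73 in control, against -0.40 and -0.29 for its other 14 regions. The rows were picked by the shRNA8 values, which are therefore lower in them by construction.

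**Figure D3:**
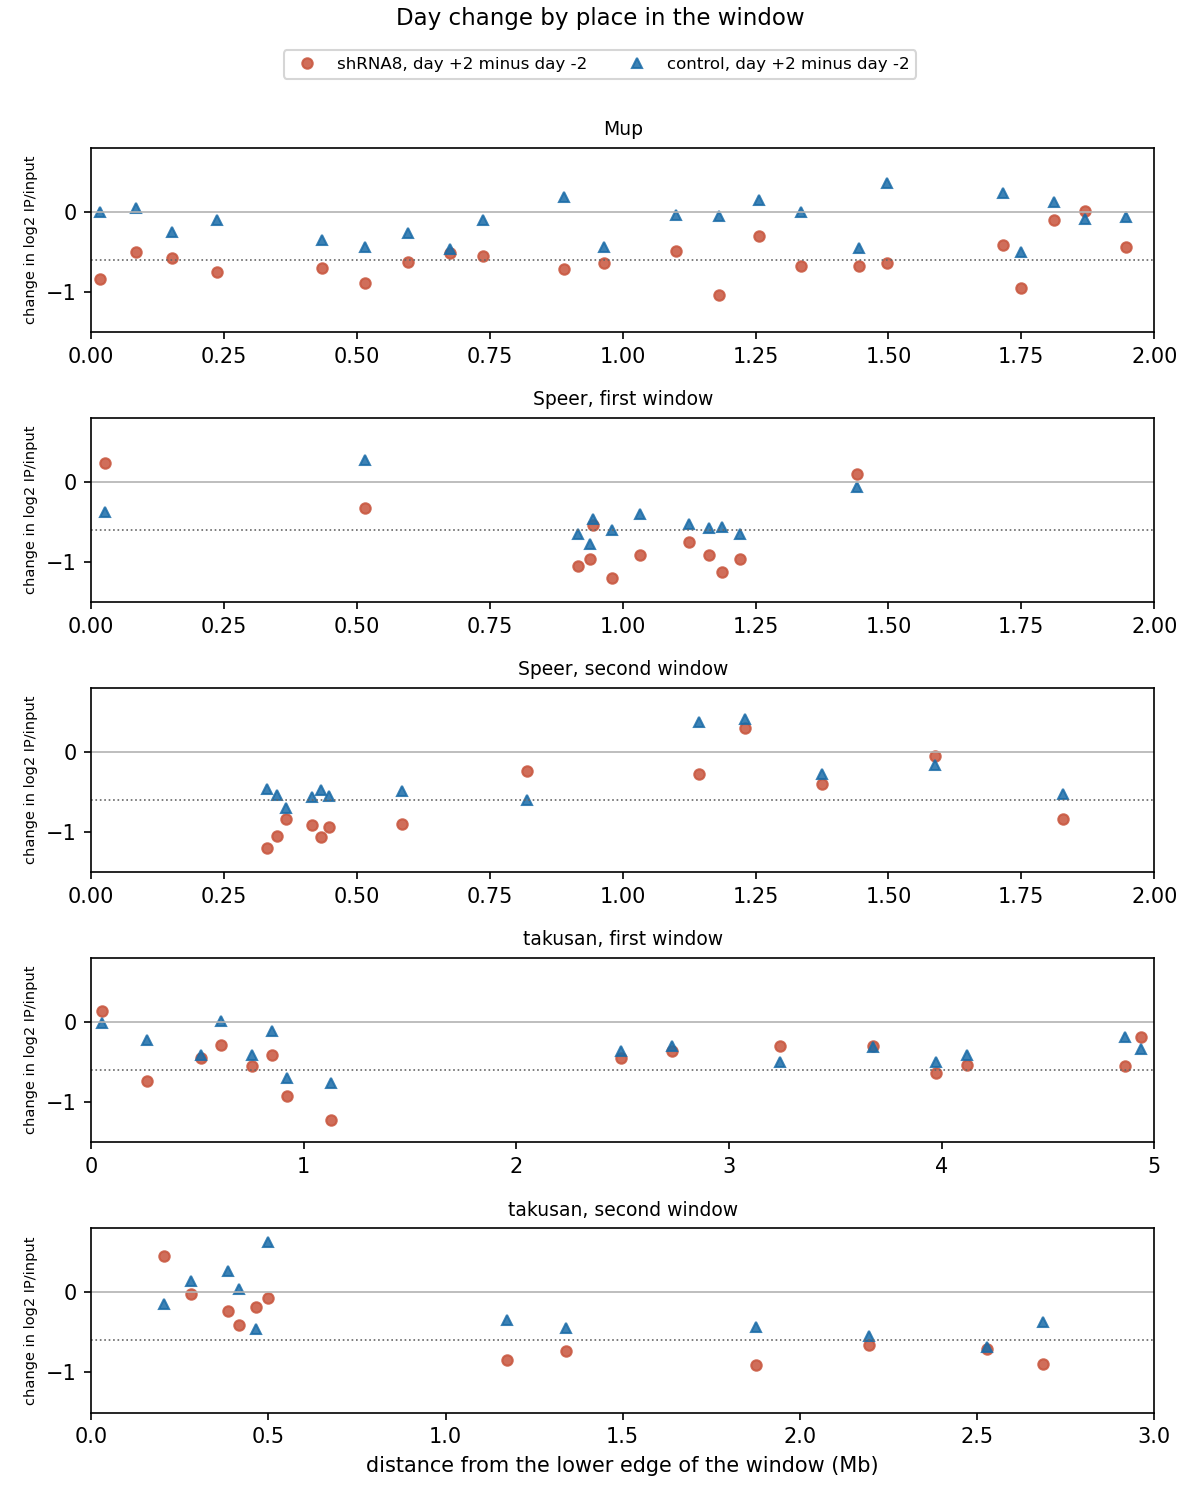
Day change in log2 IP to input of each region against its distance from the lower edge of the window, in shRNA8 (red circles) and control (blue triangles) cells. The dotted line marks the threshold of -0.6. In the second takusan window the 6 lowest shRNA8 values come from regions in a row, and in the second Speer window 7 do, with 1 more near the upper end.

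Most regions that moved had low ratios to begin with, though less so in the Mup window. This was examined with a level taken from the other line, so that it shares no array with the change. The split at a mean log2 ratio of -1 was chosen after the values were seen. In shRNA8 cells the day change of regions at or below -1 in the control arrays averaged -0.70 for 11 Mup, -0.89 for 18 Speer and -0.69 for 15 takusan regions. For those above -1 it averaged -0.49 for 11 Mup, -0.11 for 7 Speer and -0.20 for 13 takusan regions. In control cells, split on the shRNA8 arrays, the regions at or below -1 averaged -0.22 for Mup, -0.53 for Speer and -0.44 for takusan. Those above -1 averaged 0.00, -0.05 and -0.06. Outside the windows 3042 regions were at or below -1 in the control arrays, and their shRNA8 day change averaged 0.00, with 5.42% of them lower, against 1.29% of the 14335 regions above -1. Of the cluster regions at or below -1 in the control arrays, 32 of 44 were lower. Above -1 it was 4 of 31, and all 4 were among the 11 Mup regions.

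**Figure D4:**
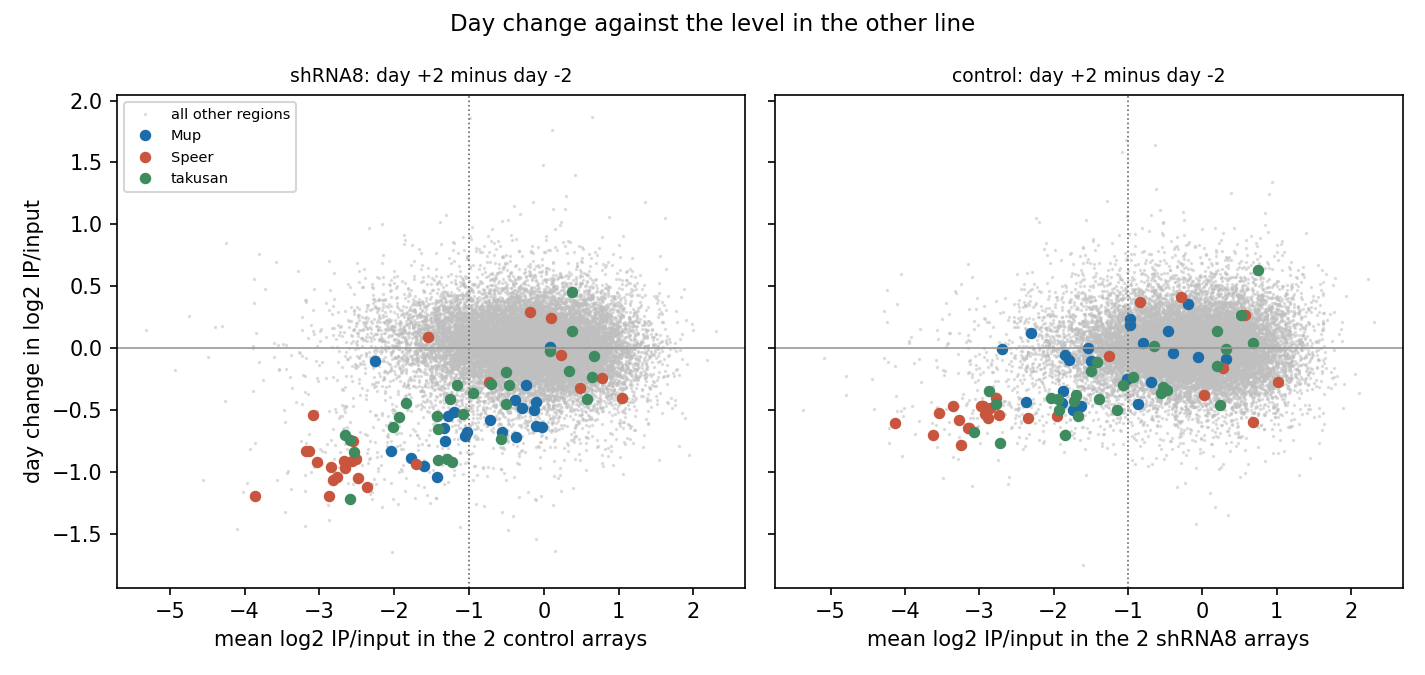
Day change in log2 IP to input of each region against its mean log2 ratio in the 2 arrays of the other line. Large points are the cluster regions by family, grey points all other regions, and the dotted line marks the split at -1. The Speer points with ratios near -3 lie below 0 in both panels, while the grey points average 0.00 and 0.01 on the left and right of the split in shRNA8 cells.

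Probe length, which the array design sets, moved with the result. In shRNA8 cells the day change of takusan probes averaged -0.09 for 78 probes of 45 bp, -0.70 for 102 probes of 46 to 59 bp and -1.0 for 12 probes of 60 bp. The Mup probes averaged -0.30, -0.71 and -0.82 in the same length classes, and the Speer probes -0.61, -0.77 and -0.98. Probes elsewhere averaged 0.04, -0.06 and -0.16. Longer probes thus had the more negative day change in each family, by more than elsewhere. They also had the lower ratios. In control at day -2 these averaged -0.07, -1.48 and -2.66 for takusan, 0.22, -0.60 and -3.03 for Mup, and -1.39, -2.22 and -2.41 for Speer. Elsewhere they averaged -0.18, -0.31 and -1.54. Probe length and level of the ratio therefore go together and were not taken apart. Probes of 60 bp made up 30.3% of the Mup window, 19.6% and 18.5% of the Speer windows, and 4.31% and 12.3% of the takusan windows, against 13.2% elsewhere. The part of probe length in the result was not tested. In control cells the takusan probes averaged -0.16, -0.36 and -0.48, the Speer probes -0.41, -0.42 and -0.50 and the Mup probes -0.04, -0.16 and -0.26.

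Regions on both sides of the window edges varied in their day change. Just inside the lower edge of the Mup window the region at 15.1 kb had a shRNA8 day change of -0.83, and the nearest region outside, at 27.0 kb, had -0.42. Above that window the nearest region outside had 0.11. Below the first Speer window the nearest region, at 209 kb, had -0.63 in shRNA8 and -0.31 in control, and the next had -0.08 in shRNA8. Above it the nearest region, at 59.3 kb, had -0.29, and the next, at 982 kb, had -0.82 in shRNA8 and -0.54 in control. Below the second Speer window the nearest regions outside, at 965 and 979 kb, had 0.08 and 0.14 in shRNA8 cells. Above it those at 169 and 398 kb had 0.02 and -0.42. Above the first takusan window the nearest region, at 8.2 kb, had -0.16, and the next, at 245 kb, had -0.79 and -0.35. Below the second takusan window the nearest regions, at 1032 and 1214 kb, had -0.44 and -0.21 in shRNA8 cells. Above it those at 2.1 and 35.1 kb had -0.27 and 0.64.

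A stricter filter that kept probes with input well above background left 7 of the 22 Mup regions, and their day change in shRNA8 was -0.28. Without subtraction of background the Mup, Speer and takusan day changes in shRNA8 were -0.22, -0.32 and -0.18. No cluster region then reached the threshold, and 0.0287% of all regions were lower.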

How the data were processed

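Genomic DNA of 4 samples was measured on 4 two-colour arrays, with IP in Cy5 and input in Cy3, per the labels. The authors deposited the intensity of each spot and channel (median, background-subtracted and processed signals) and a log10 ratio, made with Agilent Feature Extraction 11.0.1.1 on build mm9, per the file headers. The submitters' processing notes name limma without its role.

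The log2 ratio of processed Cy5 to processed Cy3 intensity was taken per probe. The deposited log10 ratio equalled it within 0.01 log2 units for 82.5% to 87.0% of probes per array. Spots with a quality mark were left out (174301 probes remained), and then probes whose input was not above background in all 4 arrays, which left 95060. Of the cluster probes 77.8% were kept, against 54.3% elsewhere. The median of every array was set to 0, ratios were quantile normalized over the arrays, and probes were averaged over regions of at least 3 kept probes with gaps up to 1000 bp. Channel values are log2 processed intensities centred on each array's median. With 1 array per group no test was made, so precision is unknown. The calling of regions was tried on known shifts added to shuffled probe differences of these arrays, and the quantile normalization on random numbers. The other steps were not tried in this way. In each window, the regions named are the 2 most negative and the most positive shRNA8 day changes and the most negative line difference at day +2. Regions named for a shared probe layout or at a window's edge, and the split by level, came after the values were seen. The windows, lists and rules were chosen with earlier results of these data known. Promoters were compared with Biopython 1.88, and figures made with matplotlib 3.10.9 under Python 3.11.15. The within-array loess used limma 3.58.1.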

Additional observations from a re-analysis of the deposited data

Results flagged for a closer look

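The mean day changes of shRNA8 and control cells had opposite signs in 4 of the regions named above, each the highest shRNA8 value of its window. At chr4:61868749-61870480, in the Mup window, the log2 ratio changed by 0.01 ± 0.30 in shRNA8 and by -0.09 ± 0.30 in control. The SDs here are over probes, of which 5 of 8 were lower in shRNA8 and 6 of 8 in control. At chr5:14025165-14025604, in the first Speer window, it changed by 0.24 ± 0.23 in shRNA8 and by -0.37 ± 0.58 in control. There 0 of 3 probes were lower in shRNA8 and 2 of 3 in control. At chr14:3048272-3049762, in the first takusan window, it changed by 0.14 ± 0.49 in shRNA8 and by -0.01 ± 0.80 in control. There 4 of 6 probes were lower in shRNA8, against the sign of the mean, and 3 of 6 in control. At chr14:41705781-41707464, in the second takusan window, it changed by 0.45 ± 0.84 in shRNA8 and by -0.15 ± 0.50 in control. There 2 of 7 probes were lower in shRNA8 and 4 of 7 in control. With 1 array per group these differences between the lines were not tested, and each was named for its high shRNA8 value.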

How the results depend on the processing

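No paired analysis was possible because each group has 1 array and the results come from no test. Over 15 alternatives, 218 of 264 values stayed within 1 SD over regions of the value above or, for counts, within 1.5 times. Of 144 family means, 135 did so, which allows a mean near 0 to change sign. The rule is wide, since the SD is large beside the means. In shRNA8 the Speer mean was -0.67 with an SD of 0.46, and the takusan mean -0.46 with an SD of 0.36. Their much smaller values without background subtraction, given above, therefore still count among the 135. The counts here are over the 75 regions, in which the values above were 36 lower between the days in shRNA8, 8 lower and 1 higher in control, and 1 lower at day -2 and 13 lower at day +2 between the lines. Alternatives that change which probes or regions enter have other totals. Lower counts are set against the share of all regions that were lower, and no such share was taken for higher regions. Within-array loess gave 26 lower in control and 4 lower at day -2, against 2.83% and 2.49% of all regions. Without a filter on input, 0 were higher in control and 1 was higher at day -2. With input well above background, the Mup mean in shRNA8 was -0.28, and 22 were lower in shRNA8, 4 lower and 0 higher in control, 0 lower at day -2 and 6 at day +2. Of all regions 0.886%, 0.137%, 0.264% and 0.812% were lower in the same order of comparisons. Without background subtraction, the Mup means were -0.22 in shRNA8 and -0.21 at day +2, and the takusan mean at day -2 was 0.0020, with its sign turned. Under that setting 0 cluster regions were lower or higher in any comparison, against at most 0.063% of all regions lower. Regions of at least 1 probe gave 2 higher in control, 6 lower at day -2, against 3.49% of all regions, and 1 higher at day -2. The median of probes gave 0 lower at day -2, against 1.09% of all regions. A threshold of 0.4 gave 33 lower in control, 6 lower and 1 higher at day -2, and 32 lower at day +2. Of all regions 3.8%, 4.09% and 5.24% were lower in those comparisons. A threshold of 1 gave 8 lower in shRNA8, 0 lower and 0 higher in control, 0 at day -2 and 2 at day +2. The shares of all regions lower were then 0.447%, 0.0688%, 0.115% and 0.235%. With all probes of a region on 1 side, 0 were higher in control and 5 were lower at day +2, against 1.24% of all regions lower.

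A pair of alternatives was added after the data were seen. The IP channel alone gave shRNA8 day changes of -0.052 for Mup, -0.026 for Speer and 0.0032 for takusan, the last with its sign reversed. It gave -0.061 for Speer in control, and -0.016 for Mup, 0.010, reversed, for Speer and 0.011, also with its sign turned, for takusan at day +2. In the IP alone 0 cluster regions passed the threshold in each comparison, and 0% of all 17452 regions were lower, so this 0 is not particular to the clusters. The input channel alone, with its sign turned, gave 0 higher in control, 0 lower at day -2 and 8 lower at day +2. Of all regions 1.11% were lower at day -2 and 1.55% at day +2. The cause of these shifts was not tested, except that by construction fewer probes are tested under the stricter filter. The median input of the kept probes was 20.3 to 29.3 units above background. Without replicates, the spread between cultures and between arrays is unknown.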
